A study of Homo sapiens with 12 samples.

Results

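The mRNAs described here encode the proteins of the cytosolic ribosome. Members were the genes whose symbol is RPL or RPS followed by a number, with an optional A, L, X or X-like ending, together with RPLP0, RPLP1, RPLP2, RPSA and FAU. Only probe sets annotated to a single gene were used, and each gene was read from the one of its probe sets that was brightest on average over the 12 arrays. This gave 57 members of 19775 genes on the array, 35 of the large and 22 of the small subunit. Of these, 54 passed a filter on low values (log2 intensity of at least 6 on at least 4 arrays), as did 10157 genes in all. RPL10L (mean log2 intensity 4.87), RPL3L (3.53) and RPL36A (3.28) did not pass it. A further 15 ribosomal protein genes, among them RPL5, RPL10, RPL13A, RPS2 and RPS20, are on probe sets shared with another gene and were not analysed here, nor were RPLP0 and RPSA.

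The cells were MCF10A, a mammary epithelial line that is generally described as non-tumorigenic and that the labels list under breast cancer. They were wild type (WT) or carried a doxycycline-inducible short hairpin RNA that silences eIF4G1 (4GKD, here "knockdown"), and they were mock-treated or irradiated with 10 Gy from a linear accelerator. RNA came from 3 preparations of each of the 4 conditions: light polysomes (LMW, 1 to 3 ribosomes), heavy polysomes (HMW, 4 or more ribosomes) and total RNA (Total). Each of the 12 combinations has 1 array. The labels do not state whether WT cells had doxycycline or a control hairpin, how long after irradiation RNA was taken, or whether the conditions came from separate cultures. A different amount of an mRNA on an array cannot be told apart from a different composition of the RNA around it.

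Ribosomal proteins assemble with ribosomal RNA into a large and a small subunit, which join on an mRNA to translate it. Most of their mRNAs are short, abundant and begin with a cytidine followed by a run of pyrimidines, the 5′ terminal oligopyrimidine (TOP) motif. The kinase complex mTORC1 controls the translation of TOP mRNAs, and the RNA-binding protein LARP1 can bind their cap and the motif and hold them off polysomes. eIF4G1 is the scaffold of the cap-binding complex eIF4F, which joins the cap-binding protein eIF4E to the helicase eIF4A and recruits the small subunit.

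The sequences around the annotated transcription starts show this motif, and they are printed for the members on which the comparisons turn. Starts were taken from RefSeq on the build GRCh38.p14, in which 47 of the 54 kept members were found. A start was counted as TOP-like where its base is C and each of the next 4 bases is C or T, read on the transcribed strand only. By this rule 34 of the 47 kept members (72.3%) had a TOP-like start, against 1404 of all 27305 genes in the table (5.14%). A match describes an annotated start and does not show which start MCF10A cells use. Each line gives 15 bases before the start and 15 from it, and the run of pyrimidines that holds the start is in capitals. RPS25 (chr11:119018329-119018358, minus strand), RPS24 (chr10:78033848-78033877, plus), RPS12 (chr6:132814554-132814583, plus), RPL34 (chr4:108620561-108620590, plus, the upstream of its annotated starts) and RPL31 (chr2:101002274-101002303, plus) are shown because their distribution over polysomes differed most with the genotype after that of RPS27L:
RPS25: tctgagcagcgCTTCCTTTTTgtccgacat
RPS24: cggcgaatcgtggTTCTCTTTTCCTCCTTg
RPS12: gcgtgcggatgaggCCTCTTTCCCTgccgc
RPL34: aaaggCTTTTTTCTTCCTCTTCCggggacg
RPL31: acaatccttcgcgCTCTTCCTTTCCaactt
FAU (chr11:65122120-65122149, minus), RPS9 (chr19:54200843-54200872, plus) and RPS3 (chr11:75399503-75399532, plus) are shown because they are at the low end of that difference, where RPL8, for which no start was found, and RPL27A also stand:
FAU: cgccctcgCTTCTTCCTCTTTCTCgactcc
RPS9: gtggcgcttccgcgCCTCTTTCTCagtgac
RPS3: gcccgcgagccaCTTCCTTTCCTTTCagcg
RPS27 (chr1:153990747-153990776, plus) and its paralogue RPS27L (chr15:63157463-63157492, minus) are shown as a pair, with RPS27L the member of the pair that has no pyrimidine at its start:
RPS27: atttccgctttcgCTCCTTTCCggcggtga
RPS27L: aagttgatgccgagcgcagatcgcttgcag
Among the members printed here, long pyrimidine runs occur both in those that moved much and in those that moved least. RPS27L, which moved most, has no such run at its start.

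EIF4G1, the target of the hairpin, was at 6.36% to 26.8% of its WT intensity in the 6 matched comparisons of knockdown with WT. All 6 measured basal epithelial markers, KRT5, KRT14, LAMB3, ITGB4, CDH3 and SFN, were above the filter level on 12 of 12 arrays, whereas the endothelial markers PECAM1, CDH5 and VWF were below it on all 12. Of the leukocyte markers PTPRC and CD3E were below it on all 12 arrays and CD14 was above it on 10. Of the fibroblast markers COL1A2, COL3A1, PDGFRA and THY1 were below it on all 12, COL1A1 was above it on 11 and PDGFRB on 7. Among pan-epithelial markers KRT18, KRT8 and EPCAM were above the filter level on 12 arrays, CDH1 on 10 and KRT19 on 0. Among luminal markers GATA3 was above it on 12, ESR1 on 6, and PGR and FOXA1 on 0. The Total arrays correlated with each other at r = 0.944 to 0.993 over the genes kept, the LMW arrays at 0.861 to 0.984 and the HMW arrays at 0.854 to 0.986. Most members are among the brightest signals: 50 of the 54 averaged at least 12 on the log2 scale, up to 14.2 for the brightest. The exceptions were RPS27L (11.6) and the dim probe sets of RPL27A (7.88), RPLP2 (6.56) and RPL39L (6.15). For 44 of the 54 the probe set carries a name that marks possible cross-hybridisation, and ribosomal protein genes have many processed pseudogenes, so signals can include close copies.

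**Figure D1:**
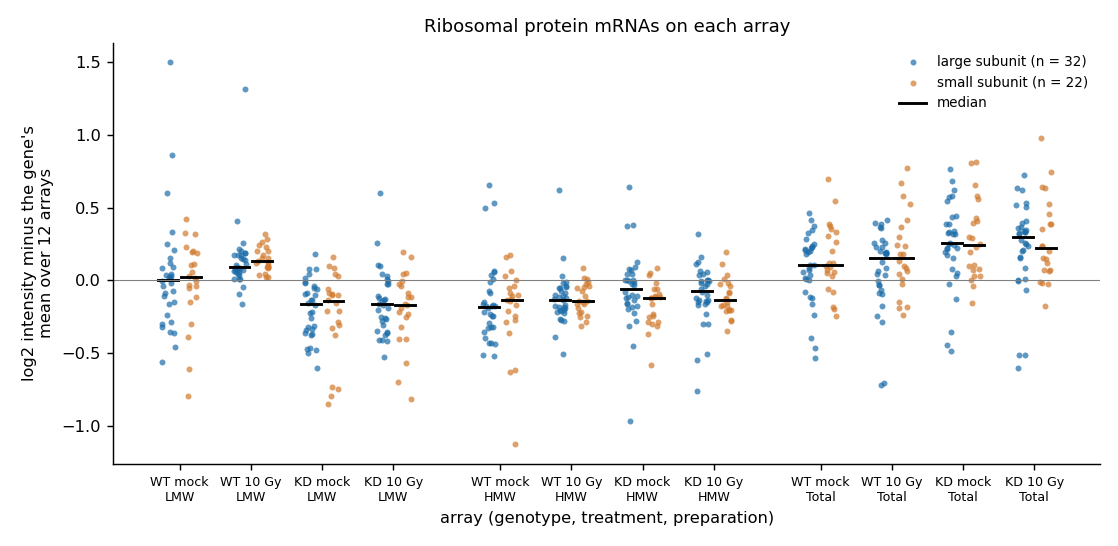
Log2 intensity of each of the 54 kept members on each array (x axis, genotype, treatment and preparation), minus that gene's mean over the 12 arrays (y axis). Points are genes, coloured by subunit, and black lines are medians of 32 large and 22 small subunit members. The members mostly lie highest in Total, except in WT 10 Gy cells, where LMW and Total lie close (median difference -0.01). In LMW most lie lower on the knockdown arrays than on the WT arrays.

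The comparison of heavy polysomes with total RNA asks how much of each mRNA is on 4 or more ribosomes relative to its abundance. Most ribosomal protein mRNAs were lower in HMW than in Total. In limma, with the condition as a block and Benjamini-Hochberg adjustment over all genes kept, 36 of 54 members were lower and 2 were higher, where 18.6% of all genes tested were lower and 17.4% higher. The median difference of the members was -0.36 on the log2 scale, against 0.03 for all genes. The member medians were -0.29 in WT mock, -0.32 in WT 10 Gy, -0.41 in knockdown mock and -0.34 in knockdown 10 Gy cells, so the deficit was of like size in each condition. Without the trend in the variances 19 members were lower.

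RPS27L, a paralogue of RPS27 that p53 is known to induce, had the largest deficit in HMW. Its log2 intensities in Total were 12.01 in WT mock, 12.40 in WT 10 Gy, 12.44 in knockdown mock and 12.61 in knockdown 10 Gy cells. In HMW they were 10.50, 11.34, 11.38 and 11.82 in the same order. Every HMW value lay below every Total value, and the difference averaged -1.11 (SD 0.30 over 4 conditions, adjusted p = 0.00161). RPS12, a small subunit protein, had log2 intensities of 13.94, 13.91, 14.05 and 13.99 in Total and of 12.61, 13.08, 12.94 and 12.97 in HMW. Its groups did not overlap either (-1.07, SD 0.21, adjusted p = 0.000642), but a second, far dimmer RPS12 probe set (mean 6.74) gave a difference of 0.55. The large subunit genes RPL36 (-0.92) and RPL29 (-0.91) and the small subunit gene RPS24 (-0.74) followed. RPL41, which encodes the smallest ribosomal protein, differed by -0.63, RPS27 by -0.71, the stalk protein gene RPLP1 by -0.43 and RPL11, whose protein binds MDM2, by -0.22, all past the threshold. FAU, which encodes the small subunit protein eS30 fused to a ubiquitin-like protein, was at 0.41 and 0.18 in WT mock and WT 10 Gy cells and at -0.32 and -0.25 in the knockdown, which average to 0.00, and did not pass.

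The 2 members that were higher in HMW than in Total were RPLP2 (0.69, adjusted p = 0.0246) and RPL27A (0.68, adjusted p = 0.0468). Both are measured by dim probe sets, and with members restricted to an average of at least 12 no member was higher. RPLP2 had log2 intensities of 7.09, 6.48, 7.20 and 6.26 in HMW and of 6.16, 5.86, 6.20 and 6.05 in Total, in the order of conditions given above. RPL27A did not pass when the WT mock, WT 10 Gy or knockdown mock arrays were left out, and RPLP2 did not pass without the WT 10 Gy or the knockdown mock arrays. RPL8, RPS3 and RPL39L stood next, at 0.14, 0.18 and 0.30, and did not pass.

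Light polysomes were compared with total RNA in the same way. Here 24 members were lower and 6 higher, where 28.1% of all genes were lower and 28.5% higher, with a median of -0.26 against 0.01 for all genes. All 24 were also lower in HMW. RPS12 (-1.12), RPS27L (-1.11), RPS24 (-1.08), RPS25 (-0.90) and RPL31 (-0.86) had the largest deficits. The 6 higher members were RPL39L, a paralogue of RPL39 known from testis, RPL27A (1.01), RPLP2 (0.78), FAU (0.37), RPS3 (0.34) and RPS9 (0.29). RPL39L had log2 intensities of 7.65 and 7.47 in LMW and 6.65 and 6.77 in HMW of WT mock and WT 10 Gy cells, and was below the filter level on the other 8 arrays, Total included. It thus passed the filter only through its WT polysome arrays, so a difference from Total or from the knockdown was favoured by that choice and has no exact size. The deficit in LMW was the deeper in knockdown cells: the member median was -0.12 in WT mock and -0.01 in WT 10 Gy cells, but -0.39 in knockdown mock and -0.40 in knockdown 10 Gy cells. This difference between genotypes was not tested. The count of lower members was 13 of 54 without knockdown mock and also without knockdown 10 Gy (all genes 23.8% and 25.9%). Without WT mock 15 were lower (all genes 20.3%). The count of higher members was 2 without WT mock and 3 without WT 10 Gy (all genes 23.3% and 27.2%). Without the trend 3 members were higher and 11 lower (all genes 27.8% and 27.6%). After median centring, which moved the median of all genes from 0.01 to 0.18, 8 were higher and 12 lower with a member median of -0.10. Of all genes 35.1% were then higher and 24.1% lower. The share of lower members was thus near or below that of all genes after centring, without the trend and without either knockdown condition.

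**Figure D2:**
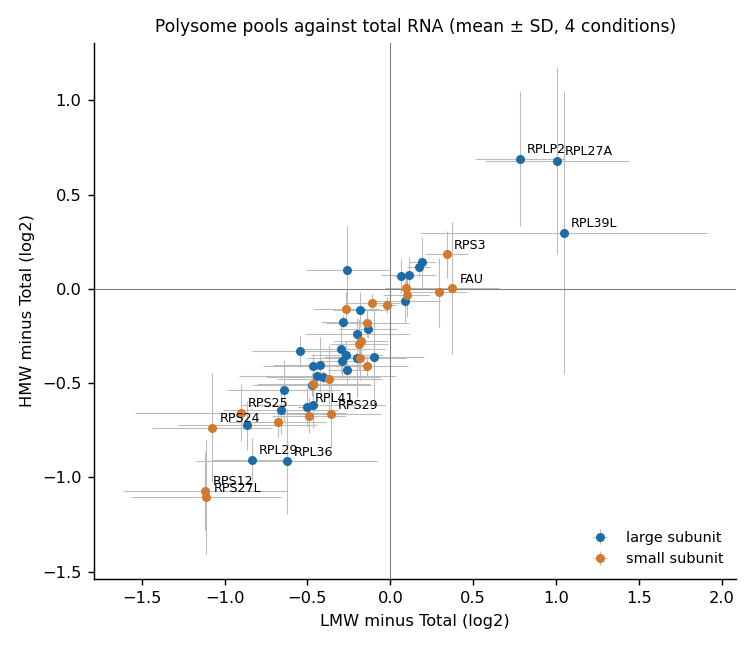
Difference from Total of the 54 kept members in LMW (x axis) and in HMW (y axis), both as log2, with points as means and bars as SD over 4 conditions. RPS27L and RPS12 lie lowest on both axes, most members lie below 0 on both, and the dim probe sets of RPLP2, RPL27A and RPL39L lie at the upper right; the axes share the Total arrays, so their relation is not a result.

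Heavy against light polysomes asks how many ribosomes the mRNAs on polysomes carry. Over the 4 conditions few members differed: 1 of 54 was higher in HMW and 5 were lower, where 19.6% of all genes were higher and 21.1% lower. The median of the members was -0.06, as was that of all genes. RPL14 of the large subunit was the higher one. Its HMW minus LMW was 0.31 in WT mock, 0.20 in WT 10 Gy, 0.48 in knockdown mock and 0.44 in knockdown 10 Gy cells. HMW was thus the higher in 4 of 4 conditions (mean 0.36, SD 0.13, adjusted p = 0.0145). The lower members were RPL39L (-0.75), FAU (-0.37), RPS9 (-0.31), RPS29 (-0.31) and RPL18 (-0.26); RPL18 falls outside the naming rule and is given to complete the 5. RPL39L is a description only, since both its pools were below the filter level in knockdown cells. FAU had log2 intensities of 13.82, 13.72, 13.49 and 13.56 in LMW and 13.56, 13.35, 13.09 and 13.12 in HMW, lower in 4 of 4 conditions (SD 0.08, adjusted p = 0.0109). RPS9 differed by -0.30, -0.29, -0.32 and -0.34 in the 4 conditions, the same shift throughout (adjusted p = 0.0162). RPS24 (0.34), RPS25 (0.25), RPL6 (0.21) and RPS6 (0.16) were next after RPL14 and did not pass, and their SDs over conditions ran from 0.17 for RPS6 to 0.50 for RPS25. Without the WT mock, WT 10 Gy, knockdown mock or knockdown 10 Gy pair 0, 3, 0 and 0 members were higher and 2, 3, 1 and 2 lower, in that order.

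The members were mostly lower in HMW than in LMW in WT cells, and in knockdown cells they were not. In WT mock cells 48 of 54 members were lower in HMW than in LMW, with a median of -0.20, and in WT 10 Gy cells 52 of 54, with a median of -0.26. In knockdown cells 33 members were higher in HMW after mock treatment (median 0.08) and 31 after 10 Gy (median 0.04). All genes had medians of -0.03, -0.13, -0.09 and -0.02 in the same order, with 51.6% and 56.3% below 0 in WT and 44.6% and 48.9% above 0 in knockdown cells. In the knockdown the large subunit medians were 0.14 and 0.06, with 23 and 20 of 32 members above 0, and the small subunit medians -0.01 and -0.00, with 10 and 11 of 22 above 0. In WT both subunits were below 0, from -0.19 to -0.26. Both knockdown differences lay above both WT differences for 42 of 54 members (77.8%), against 26.2% of all genes, and below them for 3 members (5.56%), FAU, RPL8 and RPS9, against 31.9% of all genes. For 21 members (38.9%, all genes 5.58%) the difference was below 0 in both WT conditions and above 0 in both knockdown conditions, and for 0 members (all genes 6.89%) it was the other way round. The 42 became 39 after quantile normalization (all genes 27.6%), 46 after median centring (all genes 31%) and 34 with a loess correction (all genes 25.7%). With the median of probe sets it was 41 of 52 members (all genes 25.9%).

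**Figure D3:**
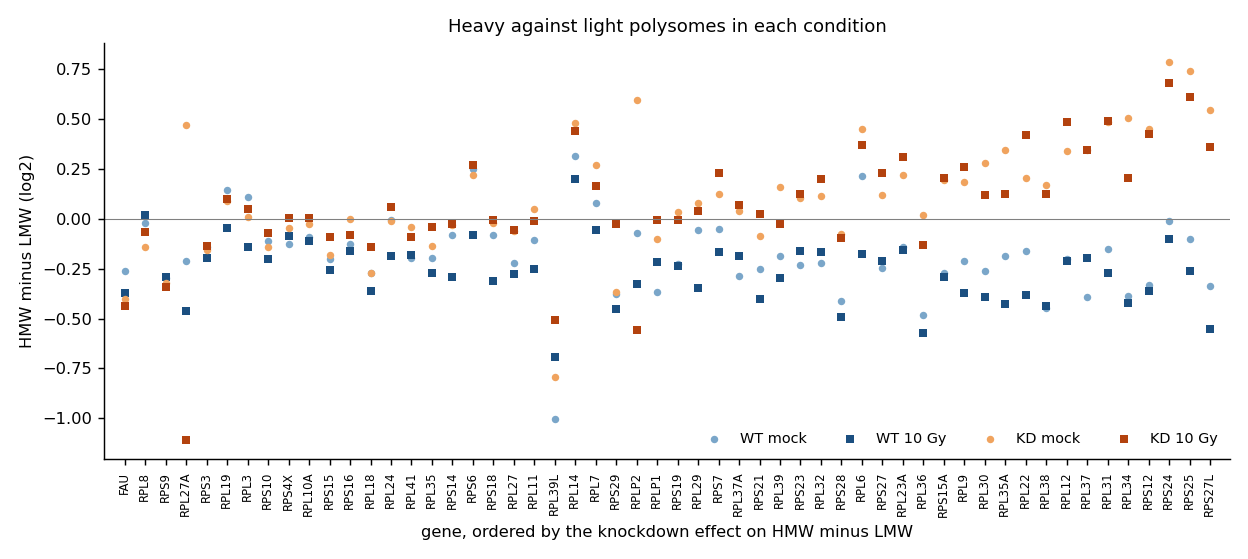
HMW minus LMW (y axis, log2) of the 54 kept members (x axis) in each of the 4 conditions, 1 pair of arrays per point. Genes are ordered by the knockdown effect; at the right the WT points lie below 0 and the knockdown points above it, while for FAU, RPL8 and RPS9 at the left the knockdown points lie slightly below those of WT.

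The knockdown effect on HMW minus LMW was fitted over the 4 differences, with genotype and treatment as terms and 1 residual degree of freedom. In limma 20 of 54 members were higher in the knockdown and 0 lower, where 5.33% of all genes were higher and 10.5% lower. At an unadjusted p under 0.05, 27 members were higher and 0 lower. The median effect was 0.24 against -0.01 for all genes, 0.25 for the large and 0.23 for the small subunit. The sizes were similar in mock (median 0.22) and irradiated cells (0.28), which share no array. The calls lean on the model of the variance. Without its trend with intensity, and with the variance still shared between genes, 0 members passed in limma (9 at an unadjusted p under 0.05, lowest adjusted p = 0.0526). In a fit over all 12 arrays 0 of all genes passed, although 27 members were higher at an unadjusted p under 0.05. With the median of probe sets 9 members passed.

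RPS27L had the largest effect (0.90, SE 0.20, adjusted p = 0.00276), with HMW minus LMW at -0.33 and -0.55 in WT mock and WT 10 Gy cells and at 0.55 and 0.36 in the knockdown. RPS25 of the small subunit followed. Its log2 intensities in LMW were 12.69 and 13.13 in WT and 11.99 and 12.02 in knockdown cells, and in HMW 12.60 and 12.86 in WT and 12.73 and 12.64 in knockdown cells. The genotypes were apart in LMW and overlapped in HMW, and the effect on the difference was 0.86 (SE 0.15, adjusted p = 0.000264). RPS24 went from -0.01 and -0.10 in WT to 0.79 and 0.68 in the knockdown (effect 0.79, adjusted p = 0.000216). RPS12 went from -0.33 and -0.36 to 0.45 and 0.43 (effect 0.78, adjusted p = 0.000303), with 0.20 for its dim second probe set. In the large subunit RPL34 (0.76, outside the naming rule and given for the size of its effect), RPL31 (0.70), RPL12 (0.62) and RPL38 (0.59) passed. RPS27, the paralogue of RPS27L, had a smaller effect (0.40, adjusted p = 0.0264) and RPL6 had 0.39. RPL11 (0.20), RPL41 (0.12), RPS6 (0.16) and RPLP1 (0.24) did not pass.

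Where a gene had several probe sets, these mostly pointed the same way. Of 97 member probe sets that passed the filter 90 had a knockdown effect above 0, and for 74 both knockdown differences lay above both WT differences. Shares over all probe sets were not computed. Over all genes the median effect was -0.01, and 26.2% had both knockdown differences above both WT differences. Of 26 members with several such probe sets 4 had effects of both signs. RPL22 of the large subunit, chosen after its values were seen because of its number of probe sets, had 5 of them with effects of 0.58, 0.58, 0.67, 0.82 and 1.14. The 3 probe sets of RPS27L gave 0.90, 1.19 and 0.46. The other RPS24 probe set passed the filter on its 4 Total arrays alone (6.80 to 7.40), was at 2.49 to 2.80 on all polysome arrays, and had an effect of -0.16 on values below the filter level.

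The single preparations show in which pool the genotypes were apart. In LMW the members were lower in the knockdown, by a median of -0.21 in mock cells (42 of 54 below 0) and -0.26 in irradiated cells (48 of 54), where all genes had 0.05 and -0.01. Of all genes 52.5% and 49.6% were above 0 there. In HMW the medians were 0.08 and 0.04, with 34 and 35 members above 0. All genes had medians of -0.04 and -0.03 in HMW, with 48% and 47.7% above 0. RPS25 in LMW differed by -0.71 in mock and -1.10 in irradiated cells. RPL39L was lower in both pools, with a knockdown signal below the filter level in each. RPS27L differed from this pattern in mock cells, with a difference of 0.00 in LMW and of 0.88 in HMW. It was not alone. In WT mock and knockdown mock cells RPL12 was at 13.24 and 13.23 in LMW and at 13.04 and 13.57 in HMW. RPS24 was at 12.70 and 12.57 in LMW and at 12.69 and 13.36 in HMW. In irradiated cells both were lower in LMW of the knockdown (RPL12 13.60 in WT and 13.18, RPS24 13.33 and 12.73). How many members differed mainly in HMW was not counted. These are values of 1 array against 1 array, without a test. When HMW was set against Total in place of LMW, the knockdown effect in limma on the members had a median of -0.07, with 0 higher and 2 lower of 54, where 3.97% of all genes were higher and 0.492% lower. Basal epithelial markers moved the other way in HMW minus LMW (5 of 6 lower in the knockdown, median -1.02), and their part in the result was not tested.

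Of the members called higher in the knockdown, 16 have a start in the RefSeq table, and 11 of them (68.8%) are TOP-like by the rule given above. Of the 31 others with a start, 23 (74.2%) are TOP-like. The difference between these shares was not tested.

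In total RNA many ribosomal protein mRNAs rose with the knockdown, by small amounts. In limma 29 of 54 members rose and 0 fell, where 20.7% of all genes rose and 19.8% fell, with a median of 0.15 against 0.03 for all genes. The members were above 0 in 51 of 54 cases in mock cells (all genes 52.7%) and 52 of 54 in irradiated cells (all genes 53.5%). RPL38 (0.33), RPL29 (0.33) and RPL12 (0.33) rose most. RPL29 had log2 intensities of 13.61 and 13.61 in WT and 13.96 and 13.92 in knockdown cells, and RPL12 of 13.79 and 13.79 in WT and 14.14 and 14.09 in the knockdown. Neither gene's genotypes overlapped (adjusted p = 0.000403 and 0.000338). FAU (0.23), RPL11 (0.23), RPS27 (0.16) and RPS27L (0.32) rose too, whereas RPL10A (-0.00), RPS6 (-0.02) and RPL39L (-0.15) were lowest and RPLP1 (0.05), RPLP2 (0.12) and RPL41 (0.04) did not pass. Without the trend 2 of 54 members rose (8 at an unadjusted p under 0.05), where 17.4% of all genes rose. The excess of members over all genes was thus not seen under that variance model. Over all 12 arrays 0 members passed (10 at an unadjusted p under 0.05), where 0.66% of all genes rose and 1.7% fell.

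**Figure D4:**
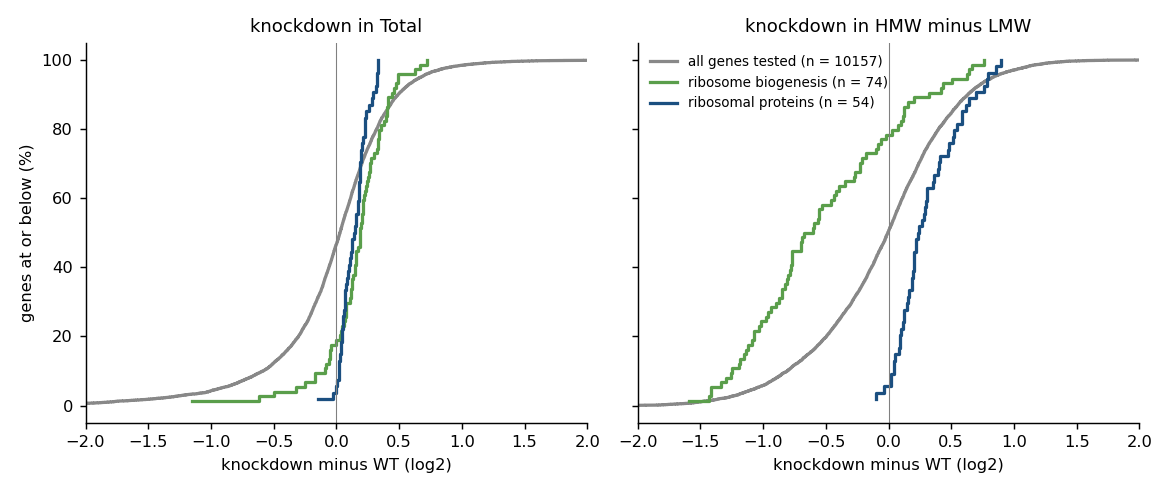
Share of genes (y axis, percent) with a knockdown effect at or below the value on the x axis (knockdown minus WT, log2), in Total (left) and in HMW minus LMW (right), for all 10157 genes tested, 74 ribosome biogenesis genes and the 54 kept members. In Total the members and the biogenesis genes both lie to the right of all genes at their medians (0.15, 0.19 and 0.03), while in HMW minus LMW they lie on opposite sides of it (0.24, -0.64 and -0.01).

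No member passed the test for an effect of 10 Gy. In Total 0 of 54 members were called in limma, where 0.128% of all genes rose and 0.0492% fell, and 2 members were higher at an unadjusted p under 0.05. The median was -0.00 against -0.03 for all genes. RPS27L was the highest, at 0.38 in WT and 0.17 in knockdown cells (mean 0.28, adjusted p = 0.156). It passed after quantile normalization (0.30, adjusted p = 0.0137) and after median centring (0.33, adjusted p = 0.0273), and its adjusted p over the alternatives ran from 0.0137 to 1. RPS25 (0.13) and RPL39 (0.09) were next, and RPLP2 (-0.23), RPL27A (-0.11) and RPS15 (-0.08) were lowest. In LMW of WT cells RPS27L went from 10.83 to 11.89 after 10 Gy, the only member to reach 2-fold, where 15.9% of all genes did. In HMW of WT cells 15.8% of all genes did, against 0.0788% in Total of WT cells. In the knockdown 0.226% did in LMW and 0.335% in HMW. An effect of 10 Gy on WT polysomes cannot be told apart from a deviation of single WT polysome arrays. The same arrays enter the comparisons of knockdown with WT. For HMW minus LMW 0 members and 0 of all genes passed, with 2 members lower at an unadjusted p under 0.05: RPL27A (-0.92) and RPLP2 (-0.71), both dim, whose irradiated knockdown pair stood apart at -1.11 and -0.56. RPL6 (-0.24) was the next lowest, and RPL39L (0.30), RPS29 (0.13) and RPLP1 (0.12) were the highest.

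**Figure D5:**
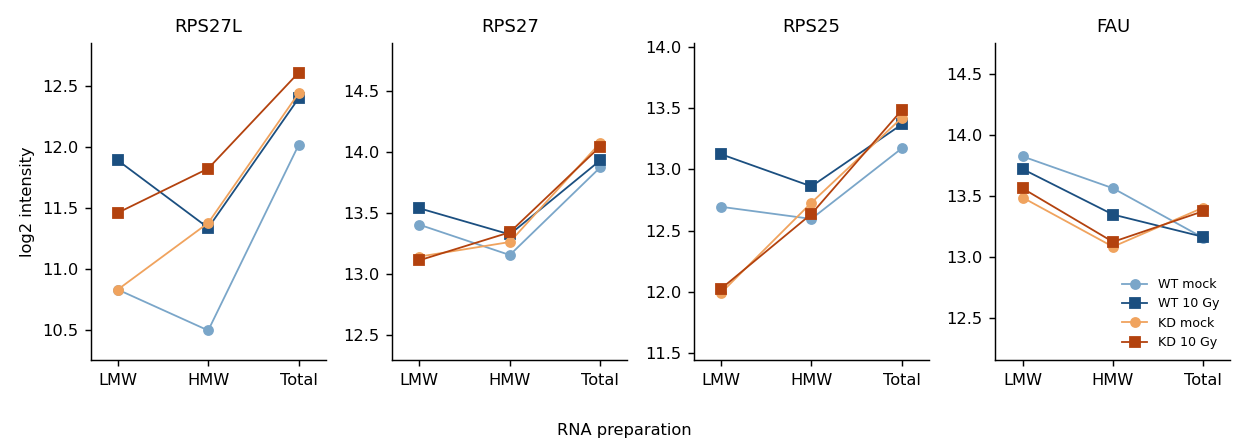
Log2 intensity (y axis, panels span equal ranges) of RPS27L, RPS27, RPS25 and FAU in LMW, HMW and Total (x axis), with 1 array per point and 1 line per condition. RPS25 is lower in LMW of knockdown cells (11.99 and 12.02) than of WT cells (12.69 and 13.13), RPS27L is higher after 10 Gy in each preparation of both genotypes, and FAU falls from LMW to HMW in all 4 conditions.

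Large and small subunit members were set against each other within each condition. The median of large minus that of small subunit members, as mean ± SD over 4 conditions, was 0.06 ± 0.07 for HMW minus LMW, -0.01 ± 0.05 for HMW minus Total and -0.05 ± 0.05 for LMW minus Total. Without probe sets whose names mark cross-hybridisation the value for HMW minus LMW was 0.21. Large subunit members had the higher median in 3 of 4 conditions for the first and in 1 of 4 for each of the others. For HMW minus Total the sign turned when each gene's probe sets were summarised by their median (0.09) and when those with names that mark cross-hybridisation were dropped (0.13). Members share arrays, so no test is given.

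Other genes of the ribosome's life were set beside the members. Of 74 ribosome biogenesis genes 37 were higher and 9 lower in HMW than in LMW (all genes 19.6% and 21.1%), with a median of 0.58, led by MDN1 (2.65), an ATPase that remodels the pre-60S particle, and UTP20 (2.48). In HMW against Total 29 were higher and 5 lower (all genes 17.4% and 18.6%, median of the list 0.41), with RRP12 (1.85) at the top and TAF1D (-3.82) at the bottom. In LMW against Total 21 were higher and 19 lower, shares close to the 28.5% and 28.1% of all genes. In the knockdown effect on HMW minus LMW 1 was higher and 32 lower (all genes 5.33% and 10.5%, median of the list -0.64), with EFL1 (-1.59), which releases eIF6 from the large subunit, and RRP12 (-1.43) the lowest; LTV1 (0.76) and RPF2 (0.67) were highest and did not pass. In Total 22 rose in the knockdown and 4 fell (all genes 20.7% and 19.8%, median of the list 0.19), POLR1D (0.66) and RPF2 (0.72) at the top and RRP1B (-1.15) at the bottom.

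Regulators of TOP mRNAs showed no common direction in HMW against LMW. Of 20 tested, 6 were higher and 5 lower in HMW than in LMW, near the shares of all genes (19.6% and 21.1%), with the kinase MTOR at 1.99 and AKT1S1, an mTORC1 inhibitor, at -0.95. In Total 2 rose and 7 fell with the knockdown (all genes 20.7% and 19.8%), among them EIF4EBP1 (-0.66), an inhibitor of eIF4E. In the knockdown effect on HMW minus LMW EIF4E (1.16, adjusted p = 0.00591) was higher, and TSC2 (-1.92, adjusted p = 4.88e-05), which restrains mTORC1, and 1 more were lower; the latter is LARP1 (-0.61, adjusted p = 0.0207), named to complete the 2. In that effect 5.33% of all genes were higher and 10.5% lower. Of 19 chaperones and importins of ribosomal proteins 1 was higher, NACA (0.52), and 5 were lower, TNPO1 (-1.21) and IPO9 (-1.20) most. Of 17 ribosome quality control genes 0 were higher and 7 lower, NEMF (-1.68) and VCP (-1.53) most. Of 20 p53 targets 4 rose with 10 Gy in Total and 0 fell (all genes 0.128% and 0.0492%, median of the list 0.35), GDF15 (1.05) and TP53INP1 (0.86) most, and 12 rose and 2 fell with the knockdown (all genes 20.7% and 19.8%, median of the list 0.40), CDKN1A (1.08) most.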

How the data were processed

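The authors deposited linear intensities of 54675 probe sets on 12 arrays, made with RMA per the submitters' processing notes. The labels state neither its version nor whether it was run on all arrays at once. Log2 was taken with no further scaling. Probe sets were named through the platform's annotation (41097 with 1 symbol, used; 1801 with several; 11777 not listed). Median intensities per array ran from 22.6 to 24.4, and the number of arrays limits the precision.

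Fits used limma 3.58.1 (eBayes with an intensity trend) in R 4.3.3 on all 10157 genes kept, with Benjamini-Hochberg adjustment at 0.05: comparisons of preparations over 8 arrays with the condition as a block, and knockdown and 10 Gy over 4 Total arrays or 4 HMW minus LMW differences. Replicate numbers only name arrays here. No combination of condition and preparation was repeated, so adjusted p-values do not measure a spread between replicates. In comparisons of preparations they rest on how far a difference varied between the conditions, which includes any difference between genotypes or treatments. For knockdown and 10 Gy they rest on how far the effect of each differed between the levels of the other. Technical variation is part of both and cannot be told apart from these differences. Scripts were tested on simulated data. Genes were named by rule: the 5 highest and 5 lowest members in comparisons of preparations, 3 and 3 in the others, members with an L ending, a set of known members, and up to 2 highest and 2 lowest of each list. Members and lists were chosen with earlier results of these data known. Alternatives were other filters (none, 7), probe set rules, scalings, variance models, blocks and left-out conditions.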

Additional observations from a re-analysis of the deposited data

Results flagged for a closer look

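The knockdown and WT cells differed in HMW minus LMW for 9 named members, by the test of that difference. The knockdown effect was 0.90 for RPS27L, 0.86 for RPS25, 0.79 for RPS24, 0.78 for RPS12, 0.70 for RPL31, 0.62 for RPL12, 0.59 for RPL38, 0.40 for RPS27 and 0.39 for RPL6 on the log2 scale. All 9 were higher in 2 of 2 pairs. They were called in a fit of these same pairs, so that agreement was nearly fixed by the choice and adds no evidence. Every one of the calls is lost without the intensity trend and over all 12 arrays.

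For 21 of the 54 members (38.9%, all genes 5.58%) HMW minus LMW was below 0 in both WT conditions and above 0 in both knockdown conditions. This count as such was not tested.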

How the results depend on the processing

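Each condition has 1 array per preparation, and the numbers of the arrays pair nothing; the condition was the block in comparisons of preparations. Without it (no replicate block), HMW against LMW had 0 members higher and 0 lower, and HMW against Total had 0 higher and 35 lower. Most members are bright, and values near the top of the scale can be compressed; this was not tested.

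Without a filter 3 members were lower in HMW against LMW, 1 was higher in HMW against Total (1 also with the filter at 7) and 16 rose with the knockdown in Total. With the median of probe sets 1 fell with the knockdown in Total and 9 were higher in the knockdown effect on HMW minus LMW. Without probe sets named _x_at, _s_at or _a_at only 23 members remain to be tested: 0 were higher in HMW against LMW, 0 higher and 12 lower in HMW against Total, 2 and 7 in LMW against Total, 9 rose and 2 fell with the knockdown in Total, 1 was higher in the knockdown effect on HMW minus LMW, and for 15 of the 23 both knockdown differences lay above both WT differences (all genes 26.3%). Large minus small was then 0.21 in HMW against LMW and 0.13 in HMW against Total (0.0922 with the median of probe sets). Quantile normalization gave 6 higher in HMW against Total and 1 higher with 10 Gy in Total. Median centring gave 0 higher in HMW against LMW, 8 higher and 12 lower in LMW against Total (all genes 35.1% and 24.1%) and 1 higher with 10 Gy in Total. Loess correction gave 3 lower in HMW against LMW. Without the trend there were 0 higher and 2 lower in HMW against LMW and 19 lower in HMW against Total. In LMW against Total 3 were then higher and 11 lower (all genes 27.8% and 27.6%). With the knockdown 2 then rose in Total (all genes 17.4%), and 0 were higher in its effect on HMW minus LMW (all genes 2.87%). Over all 12 arrays 2 were lower in HMW against LMW, and the knockdown gave 0 in Total and 0 in HMW minus LMW. With HMW minus Total in place of HMW minus LMW the knockdown effect had 0 higher, 2 lower and a median of -0.0675. Among members averaging at least 12, a restriction added after seeing the data as was the count of 15 above, 0 were higher in HMW against Total and 3 in LMW against Total.

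With each condition left out in turn, HMW against LMW had 0 to 3 higher and 1 to 3 lower, HMW against Total 0 to 2 and 29 to 35, and LMW against Total 2 to 5 and 13 to 28. Large minus small ran from 0.03 to 0.08, from -0.03 to 0.01 and from -0.07 to -0.04.

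Some small values changed sign. In the knockdown in Total RPS6 became 0.0415 (median of probe sets) and 0.0044 (median centring), and RPL10A 0.0329 and 0.0245. In 10 Gy in Total the member median became 0.0066 without a filter and 0.0554 with median centring, and RPS15 became 0.0068 with the median of probe sets. In the knockdown effect on HMW minus LMW RPS9 became 0.17 (median of probe sets) and 0.0476 (median centring), RPS24 became -0.16 on its dim probe set and RPS25 -0.23 against Total. In the 10 Gy effect on HMW minus LMW RPL6 became 0.10 against Total and RPS29 -0.14 with the median of probe sets. Of 602 values of named members under alternatives 524 kept direction and side of the threshold, 60 lost the call, 7 gained one and 11 changed sign. Of 88 member medians 66 stayed within their SD over pairs, 19 moved beyond it and 3 did so with a change of sign. Of the member counts and large minus small values 146 stayed within a set tolerance, 54 moved beyond it and 2 did so with a change of sign. The cause of these changes was not tested.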
